A study of Mus with 2 samples.

Results

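Immunoglobulin-rich spots were the areas of the rIL7-treated tumor section in which at least 3 UMIs of Igkc, the constant region of the kappa light chain, were counted. They were selected on Igkc alone, and 93 of the 1950 spots of the section met the rule (4.77%, 95% interval 3.87 to 5.81). A UMI (unique molecular identifier) marks 1 captured RNA molecule, so that copies made by PCR are counted once. The control section, read by the same rule, held 3 such spots of 2219 (0.135%, 0.0279 to 0.395). All intervals are 95% intervals for counting error alone, exact binomial (Clopper-Pearson) for shares and ratios and exact Poisson for summed levels.

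The spots came from a Visium experiment on CT26 tumors, which reads the polyadenylated RNA of frozen tissue laid on an array of barcoded capture areas, the spots. CT26 is a colon carcinoma line of BALB/c mice, and the cells had been placed under the skin of BALB/c mice labelled as 6 to 8 weeks old. The rIL7 mouse received 10 µg of recombinant mouse IL-7 in the peritoneum on days 11 and 13 and its tumor was labelled day 15, and the control tumor, labelled with PBS, was of the same day. Each group had 1 section, so no difference has a replicate check and no test was run. A spot covers a small region with cells of possibly several types, and spots of 1 section are not replicates. In such a spot, more cells of a type and more RNA per cell cannot be told apart.

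Antibodies consist of paired heavy and light chains. B cells first make IgM and can switch the heavy chain to IgG, IgA or IgE, and once they mature into plasma cells they fill with immunoglobulin RNA and leave most B cell surface genes behind. Plasma cells settle near stromal cells that make CXCL12 and survival factors, and in tumors they often lie with T cells, dendritic cells and vessels in lymphoid aggregates at the margin.

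Other genes of antibody-secreting cells, which the rule did not use, were read first. Ighg2b, Ighg2c and Jchain had been listed as markers of these spots with earlier results of these data known. Their levels therefore describe the spots and are no independent check. IgG heavy chain transcripts (Ighg1, Ighg2b, Ighg2c and Ighg3 together) were present in 85 of the 93 spots (91.4%, 83.8 to 96.2), and in 296 of the 1477 spots with 0 UMIs of Igkc (20.04%, 18.0 to 22.2). Jchain, which encodes the chain that joins antibodies into polymers and is made by antibody-secreting cells, was present in 55 of the 93 spots (59.1%) and in 22 of the 1477 (1.49%). The immunoglobulin-rich spots were the shallower set, with a median of 10528 UMIs against 12870. In the control section 20 of 2219 spots had an IgG heavy chain UMI (0.901%), and 12 had a UMI of Jchain (0.541%). IgG heavy chains therefore accompanied Igkc in most of the spots, with at least 3 UMIs in 73 of the 93 (78.5%), and Jchain in fewer. Of the 8 spots with no IgG heavy chain UMI, 5 lay inside the tumor and held between 3 and 7 UMIs of Igkc.

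Immunoglobulin transcripts were very unequally spread among the 93 spots. Igkc ranged from 3 to 332 UMIs per spot with a median of 11, and the IgG heavy chains ranged from 0 to 319 UMIs with the same median of 11. Jchain ranged from 0 to 28 UMIs with a median of 1. The 93 spots held 86.5% of the 3228 Igkc UMIs of the section, and the 10 richest held 47.2%. The richest spot had 332 UMIs of Igkc and 261 of IgG heavy chains in 8663 UMIs in all, and the next had 310 and 319. Both touched the outer outline of the tumor at the upper left. At the lower end, the 13 spots just inside the rule, with 3 UMIs of Igkc, had between 0 and 13 IgG heavy chain UMIs and a summed level of 196 CPM (counts per 1000000 UMIs). The 56 spots just outside it, with 2 UMIs, had between 0 and 10 and a summed level of 99.1 CPM.

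**Figure D1:**
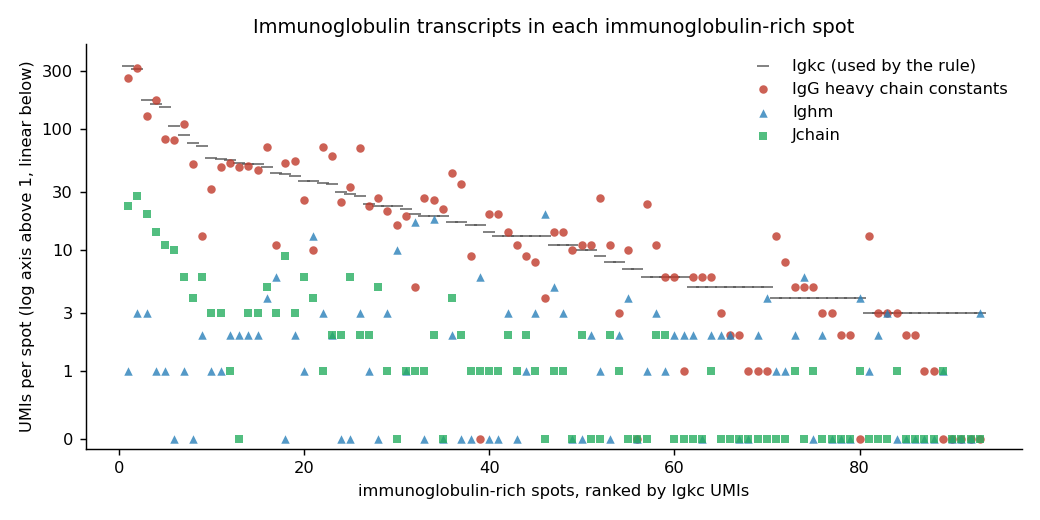
UMIs of Igkc, IgG heavy chain constants, Ighm and Jchain (vertical axis, UMIs per spot, logarithmic above 1) in each of the 93 immunoglobulin-rich spots, ranked by Igkc (horizontal axis). IgG heavy chain UMIs fell with Igkc from 319 at most to 0 in 8 spots, while Ighm reached no more than 20.

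The immunoglobulin-rich spots lay mainly along the rim of the tumor. The edge was defined as the outermost 2 layers of spots of the main piece of tissue, by position alone. It held 73 of the 93 spots (78.5%, 68.8 to 86.3), whereas it held 11.5% of the spots with 0 UMIs of Igkc. Read the other way, 22.1% of the 330 edge spots were immunoglobulin-rich, against 0.876% of the 1599 interior spots. The share was 27.9% in the outermost layer of spots, 15.8% in the next layer, 2.03% at step 3 and 0.512% from step 6 inwards. Another 6 immunoglobulin-rich spots lay on tissue detached from the main piece, which comprised 21 spots in all.

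Along the rim the spots were clustered, not evenly spaced. Of the spots that touched an immunoglobulin-rich spot, counted once per contact, 53.7% were immunoglobulin-rich themselves. Over the contacts of all edge spots the share was 19.3%, and for edge spots with 0 UMIs of Igkc it was 5.44%. The 93 spots formed 18 patches of touching spots, of which the largest held 28 spots along the upper left rim, the next 19 at the upper right and the next 15 at the bottom. These 3 patches held 62 spots (66.7%), and 10 spots stood alone. When the section was divided into quadrants at its median row and column, the upper left had 34 of the spots, the upper right 25, the lower right 18 and the lower left 16, so that every quadrant held some. Of the patches on the rim, the one at the upper right reached furthest inwards, with spots up to 6 steps from the outline.

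**Figure D2:**
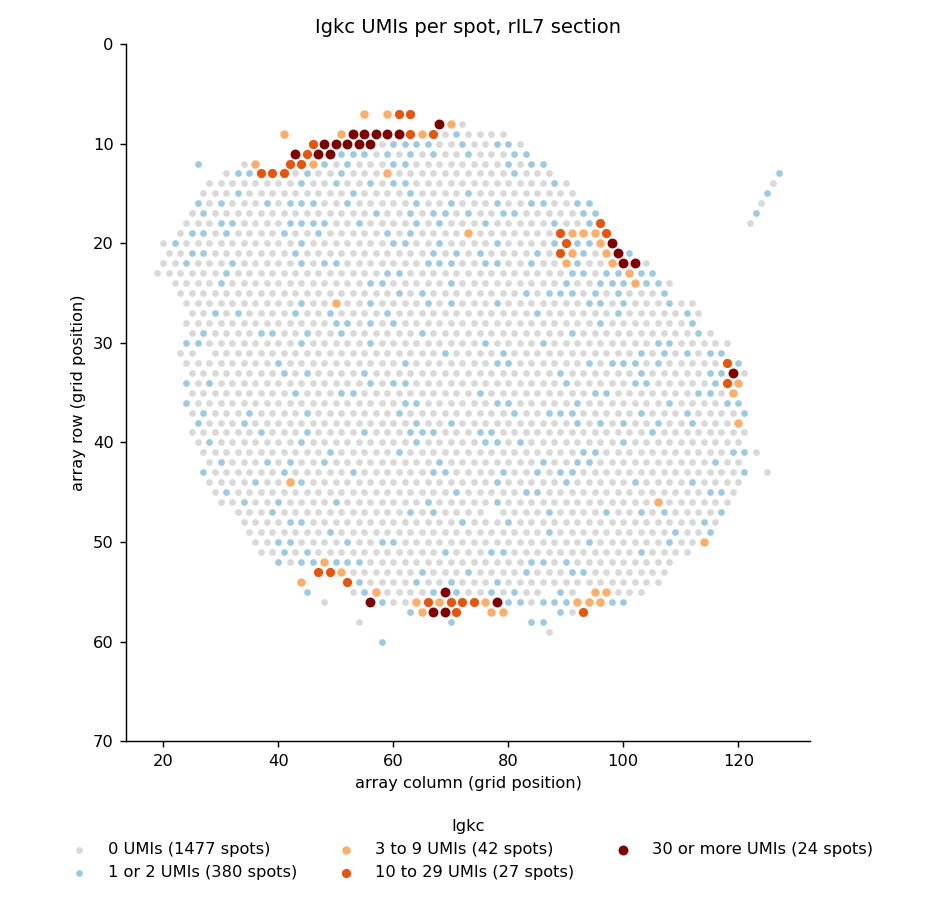
Position of the 1950 spots of the rIL7 section on the array (columns and rows of the grid), coloured by UMIs of Igkc. The 24 spots with at least 30 UMIs of Igkc sit on the rim in separate arcs, 23 of them at the edge, while spots with 1 or 2 UMIs are scattered through the section.

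The heavy chains in the immunoglobulin-rich spots were mostly of IgG classes, and their mixture differed from patch to patch. Of the 2810 heavy chain constant UMIs, 32.3% were Ighg2c, 31.9% Ighg2b, 19.2% Ighg1, 8.93% Ighg3 and 7.37% Ighm. Igha contributed 6 UMIs, and Ighd and Ighe 1 UMI each. In the spots with 0 UMIs of Igkc, Ighm was the leading class with 47.3% of 730 UMIs. The genes lie in 1 cluster of constant regions on chromosome 12 of GRCm38, from Ighg2c (chr12:113287389-113288932) and Ighg2b (chr12:113304314-113307933) to Ighm (chr12:113418826-113422730). They are close relatives, and BALB/c mice carry Ighg2a in place of the Ighg2c of the C57BL/6 reference, which the count table lists without Ighg2a. How reads were divided between Ighg2c and Ighg2b is therefore uncertain.

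The patches differed in their leading class, and in several the lead rested on 1 spot. The upper left patch of 28 spots held 1642 heavy chain UMIs, of which Ighg2c made up 47.9% (45.4 to 50.3) and Ighg1 only 6.88%. In the upper right patch of 19 spots Ighg1 led with 39.8% of 377 UMIs (34.8 to 44.9), and Ighg2c made up 9.55%. A single spot held 101 of its 150 Ighg1 UMIs, and without that spot Ighg1 made up 18.4% and Ighg2b led with 44.6% of 267 UMIs (38.5 to 50.8). The bottom patch of 15 spots was led by Ighg2b, with 45.2% of 376 UMIs. There 1 spot held 59 of the 170 Ighg2b UMIs, and without it Ighg2b made up 35.4% and Ighg1 39.8% of 314 UMIs. A patch of 6 spots at the lower right was led by Ighg2c, with 27 of 62 UMIs, 26 of them in 1 spot. A patch of 5 spots on the right rim was almost entirely Ighg1, with 108 of 118 UMIs (91.5%, 84.97 to 95.9) and 0 UMIs of both Ighg2b and Ighg2c (interval 0 to 3.08% for each). Its spots held 71, 20, 8, 6 and 3 UMIs of Ighg1, and Ighg1 remained the leading class without the richest of them, at 86.0% of 43 UMIs (72.1 to 94.7). A further patch of 5 spots at the lower left was 62.5% Ighg2b and 22.9% Ighm, with 65 of its 90 Ighg2b UMIs in 1 spot, without which Ighm led with 41.7% of 72 UMIs. In the upper left patch Ighg2c kept the lead without its richest spot, at 46.0% of 1380 UMIs (43.4 to 48.7). These values without 1 spot were added after the data were seen. The counting intervals of Ighg2c did not overlap between the upper left and upper right patches, but each patch is 1 place in 1 section.

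**Figure D3:**
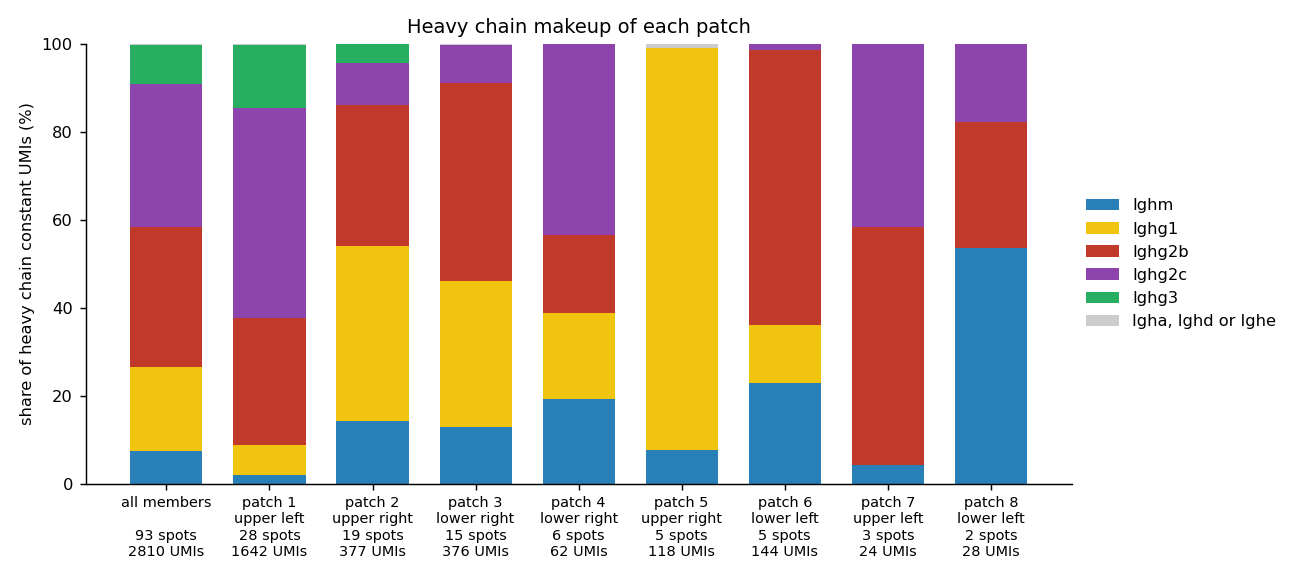
Share of heavy chain constant UMIs (percent, from 0 to 100) taken by each class in all 93 immunoglobulin-rich spots and in the 8 patches of at least 2 touching spots. The share of Ighg2c is 47.9% in the upper left patch and 0 in the 5-spot patch on the right rim, where Ighg1 takes 91.5%.

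Single spots were often dominated by 1 class as well. Among the 57 spots with at least 10 heavy chain UMIs, Ighg2c led in 21, Ighg1 in 15, Ighg2b in 13, Ighm in 6 and Ighg3 in 2. The leading class took a median of 60% of a spot's heavy chain UMIs, and in 11 spots it took over 80%. Ighg3 came largely from 1 spot on the upper left rim, which held 201 of the 251 Ighg3 UMIs. The 14 interior spots were of another makeup, with Ighg2b at 92.3% of 168 heavy chain UMIs (87.1 to 95.8). Among them were spots of the upper right patch with 35, 23, 20 and 13 UMIs of Ighg2b and 0 of the other IgG genes, and a spot of the bottom patch with 59 UMIs of Ighg2b. Most of the Ighg2c signal depended on the upper left patch. Without it Ighg2c made up 10.5% of heavy chain UMIs, Ighg3 1.37%, Ighg1 36.6%, Ighg2b 36.1% and Ighm 15.0%.

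IgM transcripts behaved differently from IgG. Ighm ranged from 0 to 20 UMIs in the immunoglobulin-rich spots, with a median of 1. It was highest in 3 spots on the rim, with 20 and 17 UMIs at the upper right and 18 at the lower left. The first 2 of these spots had fewer IgG than IgM transcripts, with 4 and 5 IgG heavy chain UMIs, and the third had more, with 26. Over the whole section Ighm stood at 27.2 CPM, against 24.3 CPM in the control section. Ighg2b stood at 43.7 and 1.83 CPM, Ighg2c at 41.9 and 0.0871 CPM, and Igkc at 125 and 1.61 CPM. These differences between sections are those of 1 mouse against another.

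Kappa prevailed among the light chains, as the rule on Igkc favours. The 3 lambda constant genes of the count table, Iglc1, Iglc2 and Iglc3, had 60 UMIs in the immunoglobulin-rich spots beside 2792 of Igkc, or 2.10% of light chain UMIs (1.61 to 2.70). Since the rule required Igkc, spots with lambda chains alone would not have been selected. Over the whole section the lambda share was 5.28% (180 UMIs beside 3228 of Igkc). The assay tags the 3′ end of transcripts, away from the variable region, and only 7 of 348 variable genes had any UMI. Of the 63 variable gene UMIs, 52 were of the lambda gene Iglv1, and 48 of these were in immunoglobulin-rich spots.

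Relative to spots with 0 UMIs of Igkc, the immunoglobulin-rich spots had higher levels of all 4 IgG heavy chain genes and of Jchain. Jchain (chr5:88519809-88527897) had 224 UMIs in the 93 spots and 22 in the 1477, a 192-fold higher level (124 to 313). The ratio was 190 for Ighg3, 140 for Ighg1, 135 for Ighg2c and 121 for Ighg2b, and 11.3 for Ighm (9.49 to 13.5). Because the sets differ in position, the same was computed among edge spots alone, 73 immunoglobulin-rich against 170 with 0 UMIs of Igkc. There the ratio was 292 for Jchain, which rested on 2 UMIs in the comparison spots (79.9 to 2430), 99.9 for Ighg1, 68.5 for Ighg2c, 50.04 for Ighg2b and 7.49 for Ighm. Without the upper left patch the log2 ratio over all spots was 6.21 for Jchain, 4.58 for Ighg2c and 3.98 for Ighg3, compared with 7.59, 7.08 and 7.57 with it.

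Gene by gene, differences were then called by their size. Of the 7709 genes that averaged 20 CPM or more over both sets, Igkc left out, 321 were at least 2-fold higher (4.16% of those tested) and 69 at least 2-fold lower (0.895%) in the immunoglobulin-rich spots. Their direction was the same in all 4 quadrants for 297 and 68 of them, the quadrants being parts of the spots already summed. Among edge spots 243 of 7664 genes were at least 2-fold higher (3.17%) and 75 lower (0.979%). There the direction was the same in all 4 quadrants for only 193 of the higher and 44 of the lower genes. Of the genes tested in both, 155 were higher in both, which was 48.4% of the 320 called over all spots and 79.1% of the 196 called at the edge. For lower genes the overlap was 21, or 36.2% and 30.4%.

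Slpi, a secreted inhibitor of leukocyte proteases, had the largest ratio by the naming rule, which required a mean of 20 CPM and left out immunoglobulin genes and Jchain. It had between 0 and 75 UMIs per immunoglobulin-rich spot with a median of 2, and between 0 and 4 elsewhere among spots with 0 UMIs of Igkc. Its level was 611 against 12.5 CPM, 49.0-fold higher (42.2 to 57.1), and 27.2-fold higher at the edge (20.9 to 35.9). The 5 spots richest in Igkc had 75, 51, 42, 70 and 69 UMIs of Slpi, and all lay in the upper left patch. Without that patch the log2 ratio of Slpi was 4.07, compared with 5.62. Lbp, which encodes the lipopolysaccharide-binding protein, was 19.9-fold higher (4.12-fold at the edge), and Hp, which encodes haptoglobin, 6.12-fold (5.71-fold at the edge). Saa3, an acute-phase serum amyloid, was 8.11-fold higher and 2.15-fold higher at the edge. These genes belong to a list of 9 acute-phase and secreted defence genes, of which 5 had at least 20 UMIs and 4 of those were at least 2-fold higher. Its summed log2 ratio was 4.04, and 2.96 without the upper left patch. Slpi supplied 631 of the list's 837 UMIs in the immunoglobulin-rich spots, and without it the list was 5.44-fold higher (4.64 to 6.36) and 3.66-fold at the edge. Lcn2, the fifth gene, had a ratio of 0.504 (0.201 to 1.05).

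The other genes with large ratios by the same rule included several of connective tissue and fat. Cxcl12, the chemokine that holds plasma cells in their niche, had between 0 and 14 UMIs in the immunoglobulin-rich spots and was present in 67.7% of them, compared with 12.2% of spots with 0 UMIs of Igkc. Its level was 13.7-fold higher (11.2 to 16.8), and 3.72-fold higher at the edge (2.88 to 4.83). The Wnt inhibitors Sfrp2 and Sfrp1 were 18.9-fold and 12.3-fold higher, the extracellular matrix genes Fbln1, Lum, Postn and Col5a2 14.2-fold, 12.3-fold, 10.9-fold and 10.6-fold higher, and Pi16, a marker of adventitial fibroblasts, 13.6-fold. At the edge these 7 ratios lay between 2.37 for Col5a2 and 3.63 for Sfrp1. Cpxm1, a carboxypeptidase-like secreted protein, was 14.6-fold higher and was found in 82.8% of the spots. The adipocyte genes Car3 and Cfd were 47.2-fold and 23.1-fold higher, yet they occurred in only 15.1% and 16.1% of the spots, and at the edge they were 11.1-fold and 13.2-fold higher. Their log2 ratios of 5.56 and 4.53 became 3.70 and 2.96 against all spots under 3 UMIs of Igkc, and 3.80 and 2.94 with the rule applied to thinned spots. Pla2g2d, a secreted phospholipase, was 11.6-fold higher, and Nbl1, an inhibitor of BMP signalling, also 11.6-fold.

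Among edge spots, the 8 largest ratios by the naming rule were those of Mzb1, Slpi, Ccr7, Rgs5, Sparcl1, Ccl22, Hp and Cxcl13. Mzb1, a chaperone of antibody assembly in plasma cells, had 34 UMIs against 1 in the comparison spots, a ratio of 94.7 with a counting interval of 15.9 to 3847. Ccr7, the receptor that guides T cells and dendritic cells to lymphoid tissue, had 34 against 7 UMIs and was 13.5-fold higher (5.90 to 36.1). Ccl22, a chemokine of mature dendritic cells, was 5.92-fold higher, and Cxcl13, the chemokine that attracts B cells, 5.57-fold (2.76 to 11.8). Rgs5, a marker of pericytes, was 8.21-fold higher, and Sparcl1, a matrix protein of vessels, 6.43-fold.

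The lower genes included several that respond to low oxygen and several of macrophages, although 15 of 19 genes of the macrophage list were higher. Hmox1, haem oxygenase, was 3.46-fold lower (2.43 to 5.11), Arg1, the arginase of suppressive macrophages, 3.15-fold lower, and Mmp12, a macrophage elastase, 2.96-fold lower. Ankrd37, a target of hypoxia-inducible factor, was 3.08-fold lower over all spots and 4.65-fold lower at the edge (2.84 to 8.13). Pthlh, which encodes a parathyroid hormone-related protein, was 3.08-fold and 4.47-fold lower. Ero1l, an oxidase of the endoplasmic reticulum, was 4.15-fold lower at the edge. Macrod1, Gzmd and Gm10419 were 2.97-fold, 2.86-fold and 2.84-fold lower over all spots. At the edge the intervals of Gzmd and Gm10419 included no difference.

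Lists of marker genes were then summed to describe the surroundings. As background, 10.0% of the 13048 genes with at least 20 UMIs were at least 2-fold higher in the immunoglobulin-rich spots over all spots. At the edge it was 4.96% of 10302, and the median log2 ratios were -0.03 and 0.00. Of the same genes 4.12% and 3.05% were at least 2-fold lower, and 47.45% and 50.22% were higher by any amount. Since the spots were chosen by Igkc, the lists describe what lay with it.

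The plasma cell list, without immunoglobulin constants, differed little as a whole and strongly in a few genes. Its summed level was 1.38-fold higher (1.31 to 1.45), and 4 of its 18 genes with at least 20 UMIs were at least 2-fold higher, with a median log2 ratio of 0.34. At the edge the list was 1.31-fold higher and the median log2 ratio was 0.10. Besides Jchain and Mzb1 these were Irf4, a transcription factor of plasma cells (6.49-fold, 11 against 32 UMIs), and Cd38, a surface enzyme (2.89-fold). Pou2af1, a B-lineage coactivator of immunoglobulin genes, had 12 UMIs in the 93 spots and 0 in the 1477, at least 75.5-fold higher against a floor of 3 UMIs over the comparison set. Derl3, a protein of endoplasmic reticulum quality control, had 6 against 5 UMIs, a ratio of 22.7 (5.76 to 93.8). Xbp1, which drives secretion, was 1.25-fold higher, Sdc1, the syndecan used to mark plasma cells, had a ratio of 0.921 (0.747 to 1.13), and Prdm1, the plasma cell regulator Blimp-1, had 8 against 196 UMIs and a ratio of 0.770 (0.328 to 1.55). Other cells also express Xbp1, Sdc1 and most secretory genes of this list.

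B cell genes were scarce in absolute terms. The list of 20 genes had 132 UMIs in the immunoglobulin-rich spots, 2.40-fold higher (1.99 to 2.88), and 6 of its 7 genes with at least 20 UMIs were at least 2-fold higher. Cd79a, a chain of the B cell receptor that plasma cells also make, had 11 UMIs against 16, 13.0-fold higher, and Cd37, a leukocyte tetraspanin, was 3.28-fold higher. The defining genes Ms4a1 and Pax5 had 0 UMIs in the immunoglobulin-rich spots and 2 and 3 in the comparison spots, and in all 6 list genes were at 0. At the edge the list was 2.12-fold higher, with 1 of 3 genes at least 2-fold higher. The list of germinal centre genes had a ratio of 0.965 (0.795 to 1.16).

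T cell transcripts were higher throughout. All 16 genes of the list were higher, 15 of them at least 2-fold, and the summed level was 892 against 307 CPM, 2.90-fold higher (2.71 to 3.11). At the edge it was 2.08-fold higher (1.90 to 2.28), with 10 of 15 genes at least 2-fold higher. The helper marker Cd4 was 9.99-fold higher (3.15-fold at the edge), while the cytotoxic marker Cd8a was 2.55-fold higher (1.60-fold). Il7r, the receptor of the injected cytokine, was 3.01-fold higher with 15 UMIs. The cytotoxicity list was 2.31-fold higher (1.90-fold at the edge), with 4 of 11 genes at least 2-fold higher. Ccl5, a chemokine of activated T cells, was 3.38-fold higher, whereas the granzyme gene Gzma and the perforin gene Prf1 had ratios of 0.903 and 1.08 with intervals that included 1.

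Antigen presentation genes went the same way. The MHC class II list was 3.56-fold higher over all spots (3.46 to 3.66) and 2.03-fold higher at the edge, led by H2-Aa at 4.19-fold and H2-Eb1 at 4.04-fold. The dendritic cell list was 1.68-fold higher, with 5 of 9 genes at least 2-fold higher, among them Flt3, a receptor of dendritic cell growth, at 9.69-fold. Siglech, a marker of plasmacytoid dendritic cells, had 16 against 39 UMIs and was 7.74-fold higher. Macrophage genes were 1.56-fold higher in sum, and 15 of 19 were higher, 5 of them at least 2-fold, but Arg1 was lower and Spp1, osteopontin, had a ratio of 0.756. At the edge the macrophage list was 1.41-fold higher, with 14 of 19 genes higher and 0 at least 2-fold. The list of Fc receptors, which bind antibody, was 1.58-fold higher, with Fcgr4 at 2.91-fold over all spots and 1.41-fold at the edge. The whole Fc receptor list was 1.31-fold higher at the edge, with quadrants from 0.859 to 1.55. All 15 complement genes were higher, 9 of them at least 2-fold, with C3, the central component, at 5.02-fold (2.75-fold at the edge). At the edge 14 of the 15 were higher and 2 at least 2-fold. The interferon response list was 1.74-fold higher and 1.34-fold at the edge, where Cxcl9, a chemokine that recruits T cells, was 1.93-fold higher. Its edge quadrants ranged from 0.923 to 2.36 for the whole interferon list.

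Vessel genes had large ratios at both scales. All 14 endothelial genes with at least 20 UMIs were at least 2-fold higher over all spots, with a summed level of 469 against 115 CPM, 4.08-fold (3.69 to 4.51). At the edge the list was 3.46-fold higher (2.98 to 4.02), with 8 of 10 genes at least 2-fold higher. The size varied around the section, with quadrants from 1.46 to 6.81 over all spots and from 1.37 to 8.12 at the edge. Selp, the P-selectin through which leukocytes roll, was 27.9-fold higher and 9.40-fold at the edge, Vwf, von Willebrand factor, 16.8-fold and 13.9-fold, and Ackr1, a chemokine receptor of venules, 16.2-fold and 6.96-fold. Lymphatic endothelial genes had a ratio of 0.732, which rested on Pdpn, a gene that fibroblasts and tumor cells also make, and Prox1, which defines lymphatic vessels, was at 0. The list of lymphoid chemokines and adhesion genes was 1.77-fold higher, with 6 of 8 genes at least 2-fold higher, and 1.76-fold at the edge. Of these Ccl19, the ligand of Ccr7, had 19 against 6 UMIs and was 59.8-fold higher (10.6-fold at the edge), and Ltb, lymphotoxin beta, was 4.08-fold higher.

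Fibroblast genes were 2.20-fold higher over all spots, 10 of 18 of them at least 2-fold, and 1.42-fold higher in sum at the edge. The edge ratio was not of 1 direction around the rim, with quadrants from 0.880 to 2.19. Collagen Col1a1 was 5.30-fold higher, while Pdgfra had a ratio of 0.713. Adipocyte genes were 3.70-fold and 3.42-fold higher, with Adipoq, which defines adipocytes, at 6 UMIs in the 93 spots and 4 in the 1477. The summed adipocyte level was 475 against 128 CPM, and none of the 10 genes was at 0 in the immunoglobulin-rich spots. Quadrants of the adipocyte list ranged from 1.35 to 6.74 over all spots and from 1.27 to 9.89 at the edge. The part of fat at the rim in the other ratios was not tested. The list of plasma cell niche factors was 2.42-fold higher (2.07-fold at the edge), with 3 of 8 genes at least 2-fold higher. Cxcl12 was among these, whereas Tnfsf13, the survival factor APRIL, had a ratio of 0.907 and Il6 0.651, both with intervals that included 1. Tnfsf13b, the survival factor BAFF, had 11 against 92 UMIs, a ratio of 2.26 (1.09 to 4.23).

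The lists that were lower at both scales included those of tumor cells, of hypoxia and, in sum only, of monocytes, and others lay near or on either side of 1. The CT26 list (Rpl39l and Baiap2l1) had a ratio of 0.705 (0.656 to 0.758), and 0.777 at the edge. The hypoxia list had a ratio of 0.579 (0.555 to 0.604), and 0.494 at the edge, with 6 of 11 and 7 of 9 genes at least 2-fold lower. Proliferation genes had ratios of 1.03 and 0.882. Neutrophil genes were at 0.876 and 1.09, mast cell genes at 1.51 and 0.981, and monocyte genes at 0.947 and 0.782. The monocyte intervals lay below 1 at both scales (0.916 to 0.978 and 0.748 to 0.817). The monocyte sum ran against most of the list, as 6 of 9 genes were higher over all spots, 5 of them at least 2-fold. At the edge 5 of the 9 monocyte genes were higher, near the share over all genes (50.22%). The keratinocyte genes Krt5 and Krt1 were at 0 in both sets, and skeletal muscle genes had 14 UMIs in the 93 spots. The red blood cell list had 7 UMIs. The nerve list gave no stable direction. Its ratio was 1.30 (0.997 to 1.67) over all spots and 1.86 (1.30 to 2.63) at the edge. Against comparison spots matched to the same grid steps it was 0.187. In that matching the detached tissue counted as a step of its own. The matched comparison level was 370.5 CPM, against 49.17 CPM over all spots with 0 UMIs of Igkc. The part of the detached spots in it was not tested.

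**Figure D4:**
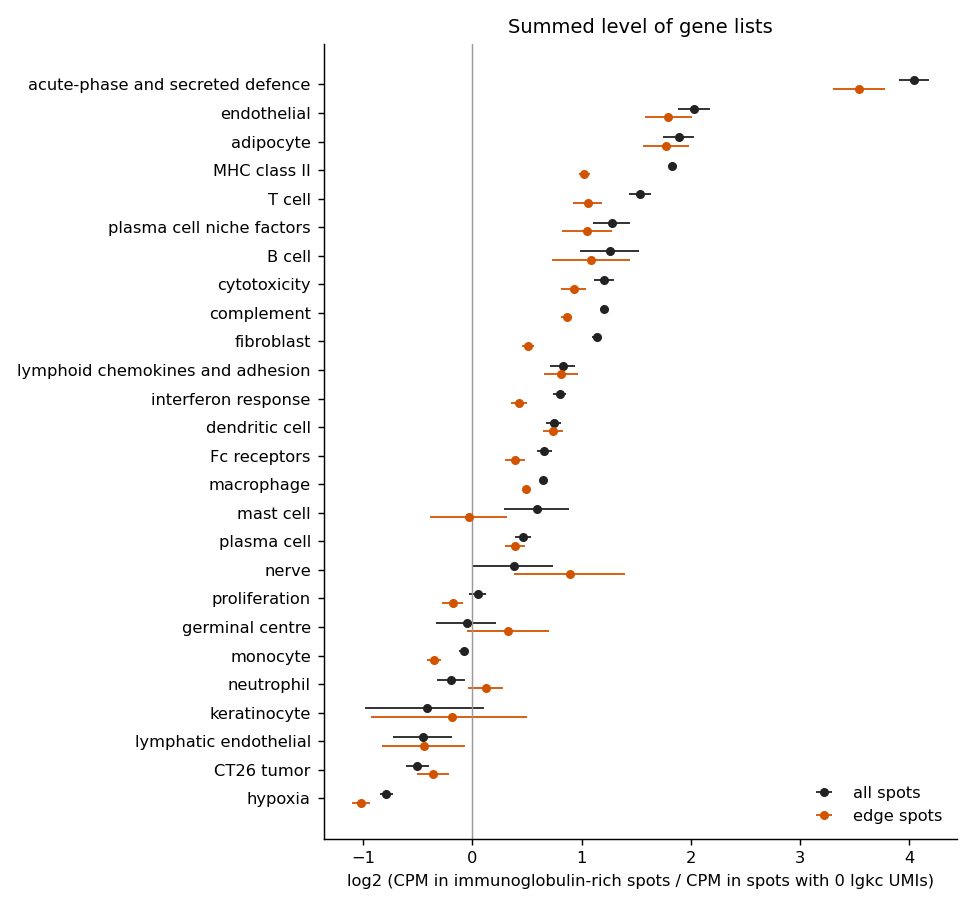
Log2 ratio of the summed level of the gene lists with at least 20 UMIs in the immunoglobulin-rich spots, immunoglobulin lists left out, in those spots over spots with 0 UMIs of Igkc, for all spots (black) and for edge spots (orange), with 95% counting intervals as bars and the line at 0 marking equal levels. Among the lists drawn, acute-phase, endothelial and adipocyte lie furthest to the right in both, and hypoxia furthest to the left.

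The surroundings differed with the amount of Igkc. From spots with 0 UMIs to spots with 30 or more, the T cell list went from 307 to 1237 CPM, the MHC class II list from 1541 to 6355 CPM, the endothelial list from 115 to 747 CPM and the CT26 list from 1063 to 657 CPM. Over the same range the share of edge spots went from 11.5% to 95.8%, so that position moved with the amount of Igkc. With position held to the edge, the T cell and endothelial lists were 2.08-fold and 3.46-fold higher in the immunoglobulin-rich spots. With comparison spots matched by grid step they were 1.91-fold and 2.40-fold higher. That matching weighted detached comparison spots by the 6 detached immunoglobulin-rich spots, and the section had only 21 detached spots in all. Spots with 1 UMI of Igkc, 324 in number, were near the spots with none, at 368 CPM for the T cell list and 140 CPM for the endothelial list. The 56 spots with 2 UMIs, just outside the rule, stood at 537 and 244 CPM. The 23 spots with 3 or 4 UMIs, just inside it, stood at 625 and 214 CPM, so these lists showed no clear break at the rule.

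Levels were also followed away from the immunoglobulin-rich spots. Spots beyond them had at most 2 UMIs of Igkc by the rule, so their lower immunoglobulin levels cannot be told apart from the selection and are given as a description. Among edge spots the IgG heavy chain level was 3178 CPM in the immunoglobulin-rich spots, 166 CPM (135 to 203) in the spots touching them, 75.8 CPM 2 steps away, 55.0 CPM at 3 steps and 27.8 CPM (20.9 to 36.3) from 4 steps on. Jchain went from 279 CPM to 8.40 CPM in touching spots. The T cell list stood at 1104, 943, 753, 752 and 451 CPM over the same distances, and the MHC class II list at 6870, 6251, 5887, 5714 and 2579 CPM. The endothelial list fell from 535 to 382 CPM in touching spots and to 139 CPM from 4 steps on. The hypoxia list stood at 1926, 1901, 1949, 2398 and 4610 CPM over the same distances, and the CT26 list at 641.1, 605, 720.5, 752.4 and 856.5 CPM. Neither was lower in the immunoglobulin-rich spots than in the edge spots touching them.

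**Figure D5:**
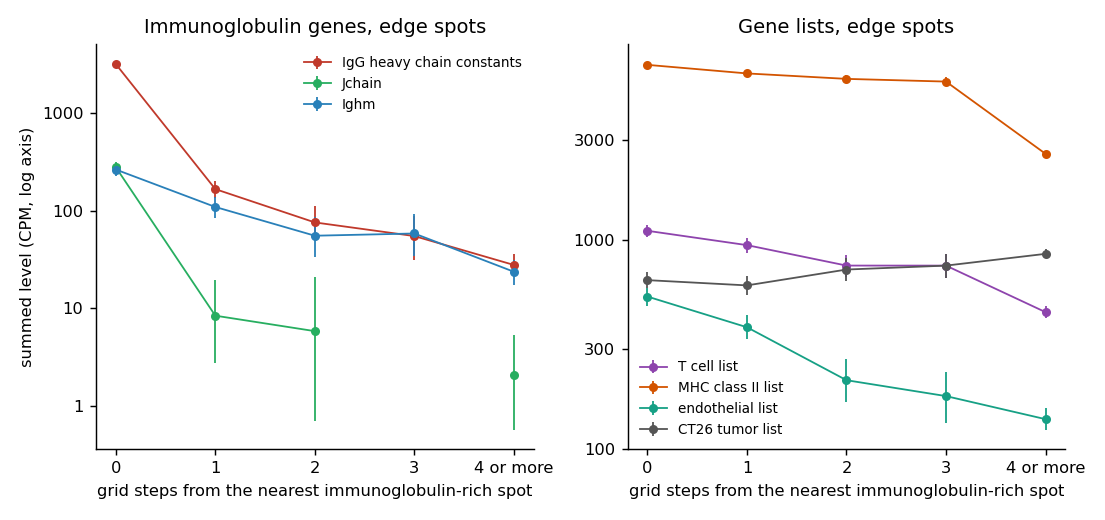
Summed levels (CPM, logarithmic axes) in edge spots by grid steps to the nearest immunoglobulin-rich spot, 0 being those spots themselves, for immunoglobulin genes (left) and gene lists (right), with 95% counting intervals. IgG heavy chains are at 3178 CPM at 0 steps and 166 CPM at 1 step, spots beyond 0 steps having at most 2 UMIs of Igkc by the rule, and the MHC class II list goes from 6870 to 2579 CPM from 0 steps to 4 or more; Jchain had 0 UMIs at 3 steps and is not drawn there.

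The immunoglobulin-rich spots of the control section were too few to compare. Its 3 spots had 3, 7 and 3 UMIs of Igkc and 8, 18 and 0 of IgG heavy chains, with no Jchain or Ighm. Mitochondrial genes took 0.245% of UMIs in the rIL7 section's immunoglobulin-rich spots and 0.143% in its spots with 0 UMIs of Igkc (0.259% and 0.219% at the edge). Median depth at the edge was 10240 against 11653 UMIs. With totals that left out immunoglobulin, mitochondrial and ribosomal protein genes, the log2 ratio of the T cell list was 1.52 and that of Slpi 5.60, against 1.54 and 5.62. With spots thinned to 5900 UMIs before the rule was applied, and shallower spots left out, that of the T cell list was 1.72.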

How the data were processed

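The authors embedded fresh tumor tissue, froze it, captured RNA of 1 section per group on Visium arrays and, per the labels, counted reads with Space Ranger 1.1.0 against mm10. The deposited matrices hold raw counts (UMIs) per gene and spot for 32285 genes, and other deposited columns (spot barcodes, gene identifiers, in-tissue flag, array row and column) were used as given. The sections share 1702 spot barcodes, which stand for array positions.

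Spots with over 200 genes and under 10% mitochondrial UMIs were kept, as in the study's methods. The median kept spot held 12921.5 UMIs in the rIL7 and 9623 in the control section, and depth limits the precision of every value. UMIs were summed over spots and divided by the total, per 1000000 UMIs (CPM). A gene at 0 took a floor of 3 UMIs. With 1 section per group and spots that are not replicates no test was made, and genes were called by a 2-fold difference and a mean of at least 20 CPM. Quadrants describe the spread within the section. The members and gene lists were chosen with earlier results of these data known. Genes named outside the immunoglobulin loci were those with the 15 largest and 8 smallest ratios over all spots, and the 8 largest and 4 smallest at the edge, whose direction was the same in every quadrant with at least 10 of the spots, and members of the lists reported. Some genes that this rule names are not reported here. Single genes not meeting that rule were picked from the lists after their values were seen. Gene positions were taken from RefSeq (GRCm38.p6) by symbol, found for 343 of 344 genes. Calculations used Python 3.11.15, NumPy 2.4.6, SciPy 1.17.1 and pandas 2.3.3, and ratios and intervals were checked on simulated counts. These were Poisson sums drawn without the uneven spread of UMIs between spots, so coverage under such a spread was not checked. Alternatives covered the Igkc minimum, depth, filters, weighting and position.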

Additional observations from a re-analysis of the deposited data

How the results depend on the processing

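With 1 section per group, no replicate could be left out and no threshold of a test applied. No paired analysis was possible because each group has 1 sample. Over the alternatives run, the direction of the 38 named immunoglobulin and other genes changed in 0 of 413 recomputed values. This says little, because most of them were named for extreme ratios with 1 direction in every quadrant. The alternatives with no spot filter and with a filter of over 1000 genes also kept the same 93 spots. Sizes moved more, and matching to grid steps put 29 of the 38 outside their counting interval. There too the detached tissue counted as a step of its own. An Igkc minimum of 2 UMIs gave 149 spots, 65.8% of them at the edge, 198 higher and 12 lower genes, 39 lower genes at the edge, and log2 ratios of 0.313 for the plasma cell list and 1.28 for the T cell list. A minimum of 5 gave 122 lower genes and log2 ratios of 0.559 and 1.68. A minimum of 10 gave 51 spots, 88.2% at the edge, 187 lower genes (159 at the edge) and log2 ratios of 0.668 and 1.77. Thinning spots to 5900 UMIs before the rule left out all shallower spots. It gave 56 spots, 142 lower genes and log2 ratios of 0.541 and 1.72. The effects of thinning and of leaving spots out were not separated. Matching the comparison spots to the same grid steps gave 153 higher and 44 lower genes and log2 ratios of 0.353 for the plasma cell, 0.848 for the B cell and 0.930 for the T cell list, against 0.464, 1.26 and 1.54 unmatched. Without the largest patch the plasma cell list was at 0.298 and 159 genes were lower at the edge. A mean CPM minimum of 5 gave 831 higher and 281 lower genes (757 and 319 at the edge), and one of 50 gave 143 and 28 (80 and 28). An edge of 1 grid step held 51.6% of the spots and gave 189 lower genes. The red blood cell list turned from higher to lower at minimums of 5 (-0.962) and 10 (-0.497) and after thinning (-0.631), on 7 UMIs, and the mast cell list on matching (-0.0299). Matching also took the nerve list from 0.379 to -2.42, the proliferation list from 0.0478 to -0.174 and the germinal centre list from -0.052 to 0.277, all lists whose counting interval included 0 unmatched. The causes of these shifts were not tested.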
